A study of Oryza sativa with 6 samples.

Results

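The caryopsis of wild-type rice was described here at 7 days after flowering, from the 3 arrays of the cultivar Zhonghua11 among the 6 arrays of the study. The whole study compared Zhonghua11 with the mutant gif1 at the same age and in the same organ, with 3 arrays each; the gif1 arrays were not used here. Total RNA of the caryopses was labelled with biotin and hybridized to a rice genome array, and the labels call the 3 arrays biological repeats. The 3 samples were taken by their labels as Zhonghua11, wild-type, with caryopsis as the tissue and 7 days after flowering as the age, and the transcripts were described by 1 probe set per gene, the brightest on the mean of the 3 arrays. This gave 17905 genes, of which 2457 (13.7%) carry a name and the others only a LOC number. No genotype was compared with another, so the values below are a description with no test; means are given ± SD over the 3 arrays (n = 3), whose number limits the precision.

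A rice caryopsis holds the starchy endosperm, which fills with starch and storage protein, the aleurone layer around it, the embryo, and the pericarp of the mother plant, which is still green early in filling. Sucrose arrives through the maternal tissue, is taken up or cleaved on its way into the endosperm, and is turned into ADP-glucose, from which starch synthases and branching enzymes build the granule. Storage proteins are made on the rough endoplasmic reticulum (ER): glutelins are moved on to storage vacuoles, whereas prolamins stay in protein bodies formed from the ER itself.

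The signals are intensities on a linear scale. Probe sets differ in how strongly they bind their targets, so a rank below orders the brightness of probe sets and not the number of transcripts, and signals at the top may lie near the upper range of the array, which was not tested. In whole caryopses, more cells of a type and more RNA per cell cannot be told apart. As a measure of signal without a rice target, 64 reporter probe sets had medians of 16.8, 14, and 16.0 on arrays 1, 2 and 3 and maxima of 191.5, 165.7 and 143.2. The highest mean of any reporter probe set was 155, and 13573 genes (75.8%) had a mean above it, against a median of 571 over all genes. The poly-A controls added during labelling differed between the arrays, with geometric means of 1338, 3547 and 4160, while the hybridization controls were at 6301, 6504 and 6697. Rice ribosomal RNA probe sets ran the other way, at 3191, 2728 and 1859, and the ratio of the 3' to the 5' probe set was 3.83, 3.95 and 3.27 for actin and 2.14, 1.77 and 1.48 for cyclophilin. Across all genes the arrays ranked transcripts alike, with Spearman correlations of 0.973, 0.967 and 0.972 for the 3 pairs of arrays, a description across genes, which are not independent replicates.

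The label of the tissue was set against markers of the cell types a caryopsis could hold. Of 11 starchy endosperm markers, 9 were matched to a gene and 9 lay above the highest reporter mean, from NFYB1 at 21928 to RAG2 at 112987. All 7 matched markers of aleurone and embryo were above that level too, from OSH1 at 566 to Emp1 at 36851, as were the 5 matched markers of green pericarp, from 1550 for RBCS, the small subunit of Rubisco, to 44440 for CAB2R, a chlorophyll-binding protein. RAB16A, a further marker fixed for aleurone and embryo, was not matched by that name. It is measured under the name RAB21, with a mean of 55029, and is left out of this count, range and the sum below. The 4 matched anther and pollen markers lay between 7.57 and 74.2 and the 1 matched root marker, PT11, at 55.0, all below it. Of 5 markers of meristem and panicle, 4 were above it, MADS1 at 15235, MADS16 at 2123, MADS6 at 1367 and OSH1, counted for the embryo too, at 566, while LAX1, a regulator of branching, read 22.2. Of all genes, 75.8% lay above the highest reporter mean, so such counts alone do not tell which cell types were present. The 4 of 5 for meristem and panicle is near that share. Median signals of the matched markers were 55210 for starchy endosperm, 3027 for aleurone and embryo and 6919 for green pericarp. The median was 1367 for meristem and panicle, against 571 over all genes. The summed signal of the 7 matched aleurone and embryo markers, without RAB21, ran from 61093 to 97704.5 over the arrays. That of the 5 matched pericarp markers ran from 74776 to 79974.

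Signal was spread over many genes, with a steep head. The 10 brightest genes held 2.98%, 2.69% and 3.26% of the summed signal of all genes on the 3 arrays, a mean of 2.98 ± 0.286%. The brightest 100 held 15.5 ± 1.09%, the brightest 500 held 36.8 ± 1.27% and the brightest 1000 held 49.8 ± 1.16%. On each array, 50% of the signal was reached with 1008, 1061 and 941 genes, and 90% with 6826, 6740 and 6537. Array 3 was the most concentrated and array 2 the least at each of these sizes up to 1000 genes.

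**Figure D1:**
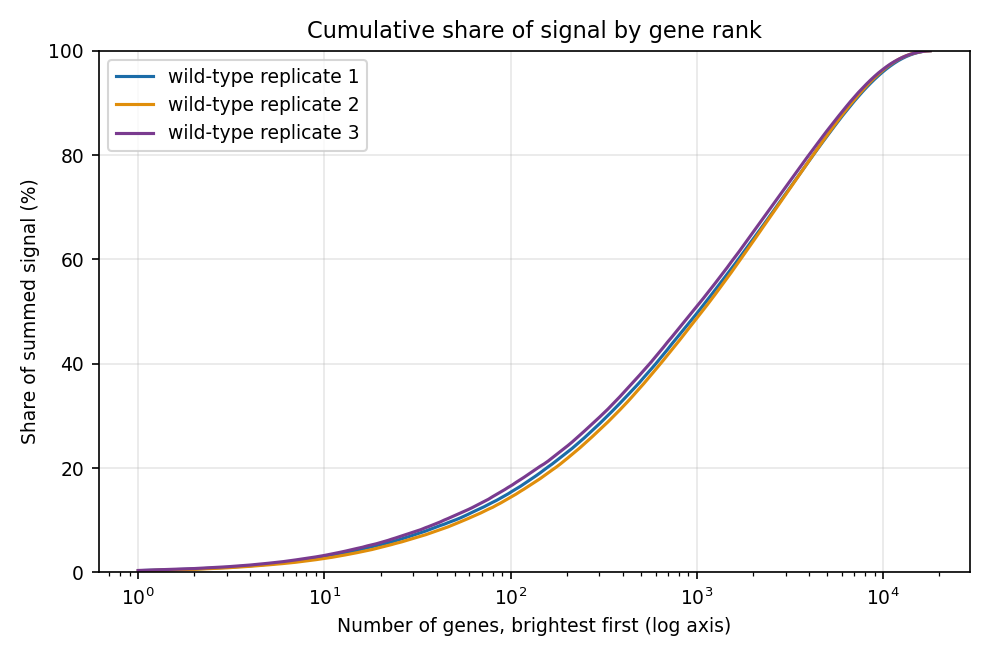
Share of the summed signal of 17905 genes (percent, vertical axis) held by the brightest genes, against their number (log axis), for each of the 3 wild-type arrays ranked by the mean of the 3. The curves lie close together, and at 100 genes they read 15.4%, 14.4% and 16.6%.

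The composition of the head was shared by the arrays. When each array ranked its own genes, 7 genes were among the 10 brightest on all 3, 28 among the 30 brightest, 82 among the 100 brightest and 428 among the 500 brightest. RP5 was first on every array. The 30 genes with the highest means ran from 119401 for RP5 down to 56919 for LOC9271122, and 16 of them have a name.

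**Figure D2:**
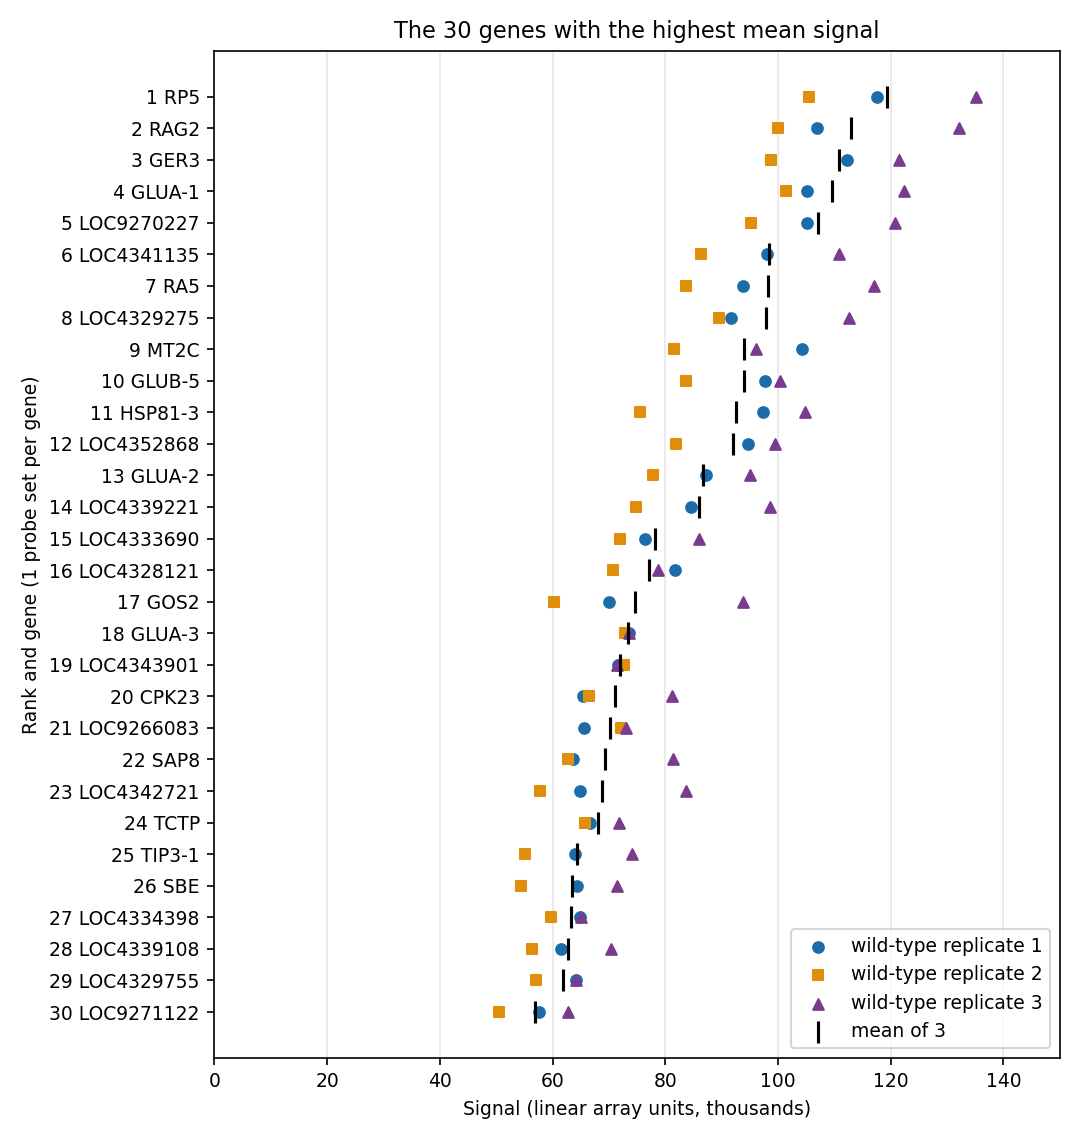
Signal of the 30 brightest genes (linear array units divided by 1000, horizontal axis) on each wild-type array, with the mean as a tick. Array 3 is the rightmost for most genes, and GLUA-3 and LOC4343901 have their 3 points almost on top of each other.

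Seed storage proteins held the largest share of the 26 function lists, a place that rests on probe sets that can bind related transcripts: without those ending in _x_at or _s_at their share was 0.880%, against 1.35% for ribosomal proteins and translation factors. The lists hold only genes matched by name, and the 15448 genes with no name held 75.7% of the signal. The order of the lists is therefore one of matched genes and not of whole functions. With all probe sets used, their 11 measured genes are 0.0614% of all genes and held 2.24%, 2.04% and 2.51% of the signal on the 3 arrays, a mean of 2.26 ± 0.234%. The median rank of the members was 13, against 8953 over all genes, and 9 of the 11 were among the 100 brightest. RP5, a prolamin, read 117639, 105450 and 135115. RAG2, a seed allergen related to cereal inhibitors of amylase and trypsin, read 106858, 100023 and 132080, and RA5, of the same allergen family, read 93758, 83715 and 117027. In all of these array 3 was the highest and array 2 the lowest.

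The glutelins, the main storage proteins of rice, filled most of the other places. GLUA-1 read 105151, 101459 and 122294 (mean 109635 ± 11118), GLUB-5 read 97683, 83664 and 100341 (mean 93896 ± 8960), and GLUA-2 read 87237, 77813 and 95111 (mean 86720 ± 8660). GLUA-3 was the exception in spread: at 73608, 72852 and 73594.5 it varied by 0.590% of its mean, the narrowest of the 500 brightest genes. GLUD-1 had a mean of 55210 ± 7743 at rank 34. Not all members of the list were bright. GLB, a globulin gene, had a mean of 1517 ± 330 at rank 4848, and GLUB-4, another glutelin, read 163, 9.4 and 75.2, below the highest reporter mean, at rank 15248.

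RAG1, the third member of the allergen family, had the widest spread among the bright storage genes: 34560, 28701 and 59491, a coefficient of variation (the SD as a percentage of the mean) of 40.0%. Array 3 stood apart from the other two, which lay close together. Of the 11 storage genes, 8 were highest on array 3 and 10 were lowest on array 2. Of the 100 brightest genes of any function, 75% were highest on array 3 and 70% lowest on array 2. The count for array 3 is thus near that of bright genes in general, and the count for array 2 lies above it. The poly-A control signal was also highest on array 3 and the ribosomal RNA signal lowest there; their part in this was not tested.

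Among the genes of starch synthesis, 4 were in the brightest 100 and the others far lower. The 9 measured genes held 0.606%, 0.558% and 0.655% of the signal, a mean of 0.606 ± 0.0487%, with a median rank of 866. SBE, a starch branching enzyme, read 64271, 54448 and 71480 (mean 63400 ± 8549, rank 26). Wx, the granule-bound starch synthase that makes amylose, read 55444.5, 49191 and 61512 (mean 55383 ± 6161, rank 33). Both were highest on array 3 and lowest on array 2.

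PPDKB, a pyruvate orthophosphate dikinase known for its part in endosperm starch and protein accumulation, was steadier, at 43189, 42004 and 42278, a spread of 1.46%. AGPS2, the small subunit of ADP-glucose pyrophosphorylase, which makes the substrate of starch synthases, had a mean of 37491 ± 6727 at rank 75. Below these 4 came a gap: SS1, a soluble starch synthase, had a mean of 7713 ± 1384 at rank 866. The remaining 4 genes, among them FLO6 at 753 and SS2 at 257, ran from rank 2061 to rank 11979. All 9 lay above the highest reporter mean.

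Genes that bring sugar in were fewer among the bright ones. The 18 sugar transport genes held 0.156 ± 0.0104% of the signal, and SWEET11, a sucrose exporter of the plasma membrane, made up 65.4% of that with signals of 36266, 30940 and 39979 at rank 85. The share of the list depends on probe sets that can bind related transcripts. Without those ending in _x_at or _s_at it was 0.0597%. The next members were far down: SWEET4 at 5187 ± 446, SWEET15 at 2794 ± 405 and Os11N3, another SWEET transporter, at 1800 ± 293. The sucrose carrier SUT1 had a mean of 1782 ± 308. For 6 of the 18 genes the mean was not above the highest reporter mean.

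The 21 genes of sucrose cleavage and hexose phosphorylation held 0.167 ± 0.0109%. Its first places, between ranks 242 and 476, were taken by sucrose synthases, which split sucrose into UDP-glucose and fructose. SUS4 read 15134, 16834 and 27329, with array 3 well above the others, whereas SUS3 read 15667, 12044 and 10350, with array 3 the lowest. OsSUS2 had a mean of 13141 ± 1801. NIN3, a neutral invertase, came next at 1816 ± 268. GIF1, the cell wall invertase gene for which the mutant of the study is named, is outside the rule by which genes were chosen for naming; it read 654, 429 and 608, with a rank of 9002, close to the middle of all genes.

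Dehydrins and late embryogenesis abundant (LEA) proteins, which protect cells of seeds against drying, were the list whose share varied most over the arrays in proportion to its mean. Their 8 genes held 0.323%, 0.311% and 0.477% of the signal, a mean of 0.370 ± 0.0926%. RAB21, a dehydrin also known as RAB16A, read 45060, 47018 and 73009. Emp1, an LEA protein of the embryo, read 30920, 27850 and 51784, and the dehydrin rab25 read 11444, 12937 and 22701. In each, arrays 1 and 2 lay close together and array 3 stood above them.

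Of the 8 genes, 6 were highest on array 3, against 32.0% of all genes and 75% of the 100 brightest. LEA19 was not among them, at 18982.5, 15292 and 15985 (rank 313). Of the 7 matched aleurone and embryo markers, 5 belong to this list, so their summed signal, highest on array 3, is no separate measure. The other markers of that set were lowest on array 3: VP1, a seed transcription factor, read 1253, 1795 and 1175, and OSH1, a homeobox gene, read 761, 592 and 346. The poly-A control signal was highest on array 3; its part in this was not tested.

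**Figure D3:**
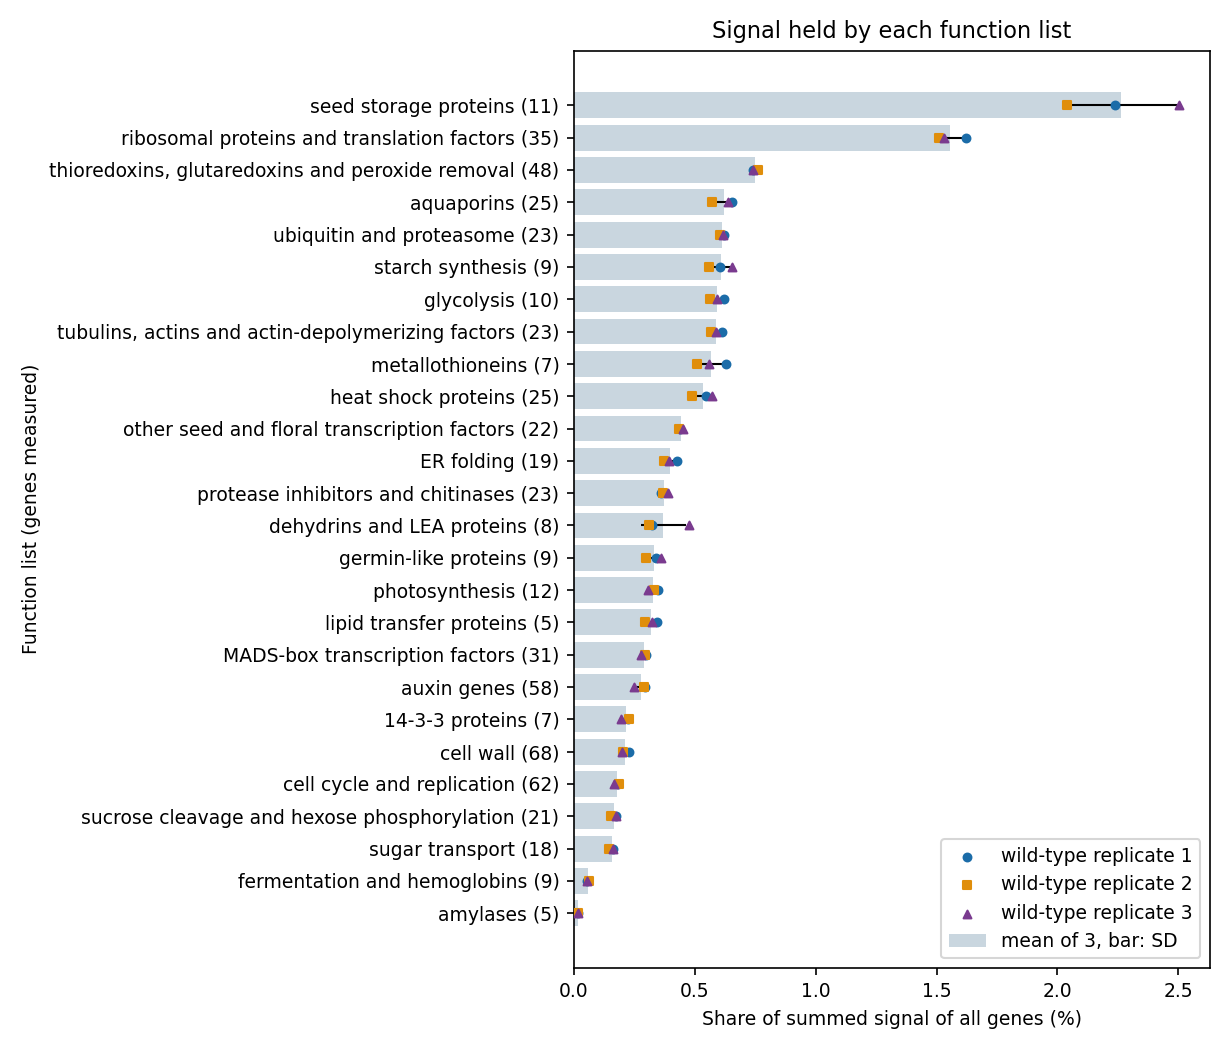
Share of the summed signal of all genes (percent) held by each of 26 function lists, with the number of genes measured in brackets. Bars are means of the 3 wild-type arrays, points the single arrays and lines the SD; the storage proteins stand at 2.26% and the LEA list has array 3 away from the other arrays.

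The machinery that makes and folds proteins was broad. The 35 ribosomal proteins and translation factors held 1.56 ± 0.0587% of the signal with a median rank of 424, and 25 of them were among the 1000 brightest; all lay above the highest reporter mean. RPS21 led them at 54755, 47012 and 58869, followed by the elongation factor EF-1-alpha with a mean of 43153 ± 2222, RPS27AA with 35299 ± 3105 and RPL5 with 30535.5 ± 796. The share of this list varied by 3.77% of its mean over the arrays, against 10.4% for the storage proteins.

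In the ER, 19 folding genes held 0.397 ± 0.0271%. PDIL1-1, a protein disulfide isomerase that forms disulfide bonds in storage proteins, read 61396, 52239 and 55579 at rank 32 and made up 40.7% of the list. BIP1, the ER member of the HSP70 chaperones, had a mean of 28099 ± 5123 at rank 133, CRO1 12125 ± 1440, and PDIL1-4, another disulfide isomerase-like protein, 9777 ± 632. PDIL1-2, PDIL1-3 and BIP4 were not above the highest reporter mean.

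Among 25 heat shock proteins, HSP81-3, a cytosolic HSP90 chaperone, was the brightest at 97314, 75554 and 104878, rank 11, and made up 49.4% of the share of the list. HSP81-2 had a mean of 30807 ± 1484, and the small heat shock proteins HSP16.9A and hsp17.9 had means of 21158 ± 2714 and 15296 ± 1569. Without probe sets ending in _x_at or _s_at, HSP81-3 read 17376 at rank 234, and the list held 0.358% in place of 0.535%. The list as a whole was not bright: its median rank was 8759, near the 8953 of all genes.

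The 23 genes of ubiquitin and the proteasome held 0.614 ± 0.00862%, one of the steadiest shares. UBQ1, a polyubiquitin, had a mean of 38187 ± 2197 at rank 69. UBC5A, a ubiquitin-conjugating enzyme, had a mean of 24658.5 ± 3543, RPS27AB, a fusion of ubiquitin with a ribosomal protein, 16939 ± 1349 and NEDD8, a fusion with a ubiquitin-like protein, 16481 ± 616. All 23 were above the highest reporter mean.

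Water channels and metal-binding proteins added single bright genes. TIP3-1, an aquaporin of the vacuole membrane typical of seeds, read 64078, 55073 and 74020 at rank 25, and TIP1-1, of the same subfamily group, read 53074, 42659 and 52744 at rank 42. PIP1-2, an aquaporin of the plasma membrane, had a mean of 24948 ± 1747 and TIP2-2 one of 21994 ± 1610. The 25 aquaporins together held 0.621 ± 0.0420%, while their median rank was 5328. TIP3-1 was read only by a probe set ending in _s_at and TIP2-2 only by one ending in _x_at. Without probe sets of these endings the list held 0.403%.

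The 7 metallothioneins, small cysteine-rich proteins that bind metal ions, held 0.566 ± 0.0618%, and MT2C made up 47.5% of this. MT2C read 104316, 81595 and 96189 at rank 9 and so was highest on array 1. MT2B was also highest there, at 45136, 34302 and 30250, whereas MT2A read 42078, 37442 and 46509. MT1A had a mean of 10672 ± 1605, and MT-1-4b, at 67.4, was not above the highest reporter mean.

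GER3, a germin-like protein of the cell wall, was the third brightest gene at 112314, 98768.5 and 121399. It held 95.2% of the signal of the 9 germin-like genes: GER1 had a mean of 3024 ± 1334, GER2 1538 ± 809 and GER6 330 ± 74.6. This list had the largest distance between its first and second member in rank, from 3 to 2523, of the lists whose brightest gene was among the 100 brightest. Lipid transfer proteins were the reverse, since all 5 were among the 1000 brightest. LTP-2 read 36844, 30283 and 47566, LTP110-A 31795, 22532 and 20764, LTP2-B 25375, 24145 and 24376, and the gene named LTP had a mean of 13769 ± 793. Without probe sets ending in _x_at or _s_at, LTP2-B read 157 at rank 12426, and the list held 0.243% in place of 0.320%.

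Enzymes of glycolysis formed another bright group. The 10 measured genes held 0.591 ± 0.0279% with a median rank of 485. GAPC, a cytosolic glyceraldehyde-3-phosphate dehydrogenase, read 48168, 47613 and 49202, a spread of 1.67%, and GAPC3, of the same family, had a mean of 46274 ± 3821. AldC-1, a cytosolic aldolase, had a mean of 36494 ± 3708 and TPI, triosephosphate isomerase, one of 33566 ± 4389. GAPC2 (104) and AldC-alpha (95.7) were below the highest reporter mean.

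Fermentation and hemoglobin genes held 0.0561 ± 0.00392% over 9 genes, and 1 pyruvate decarboxylase, with a mean of 13523 ± 1175 at rank 434, made up 69.0% of it. Adh2, an alcohol dehydrogenase, had a mean of 3033 ± 186, and the hemoglobins hb1 and HB2 had means of 1748 ± 259 and 585 ± 3.18. The 5 amylases held 0.0166 ± 0.00156%, most of it in AMY3E at 4860 ± 556 (83.7% of the list). AMY3E has only 1 probe set, ending in _s_at, and without the _x_at and _s_at probe sets the list held 0.00313%. AMY1.5 followed at 754 ± 311, while AMY1.2 (96.2), AMY1.3 (91.1) and AMY1.1 (8.77) were below the highest reporter mean.

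Photosynthesis genes, which in a young caryopsis are known from the green pericarp, held 0.347%, 0.330% and 0.306% over 12 genes. CAB2R read 46052, 43143 and 44126 at rank 50. PETE, plastocyanin, had a mean of 21414 ± 1398, LHCP, a light-harvesting protein, 13832 ± 2265 and OEE3, of the oxygen-evolving complex, 8480 ± 963. Array 3 had the lowest share here and the highest for storage and LEA genes.

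**Figure D4:**
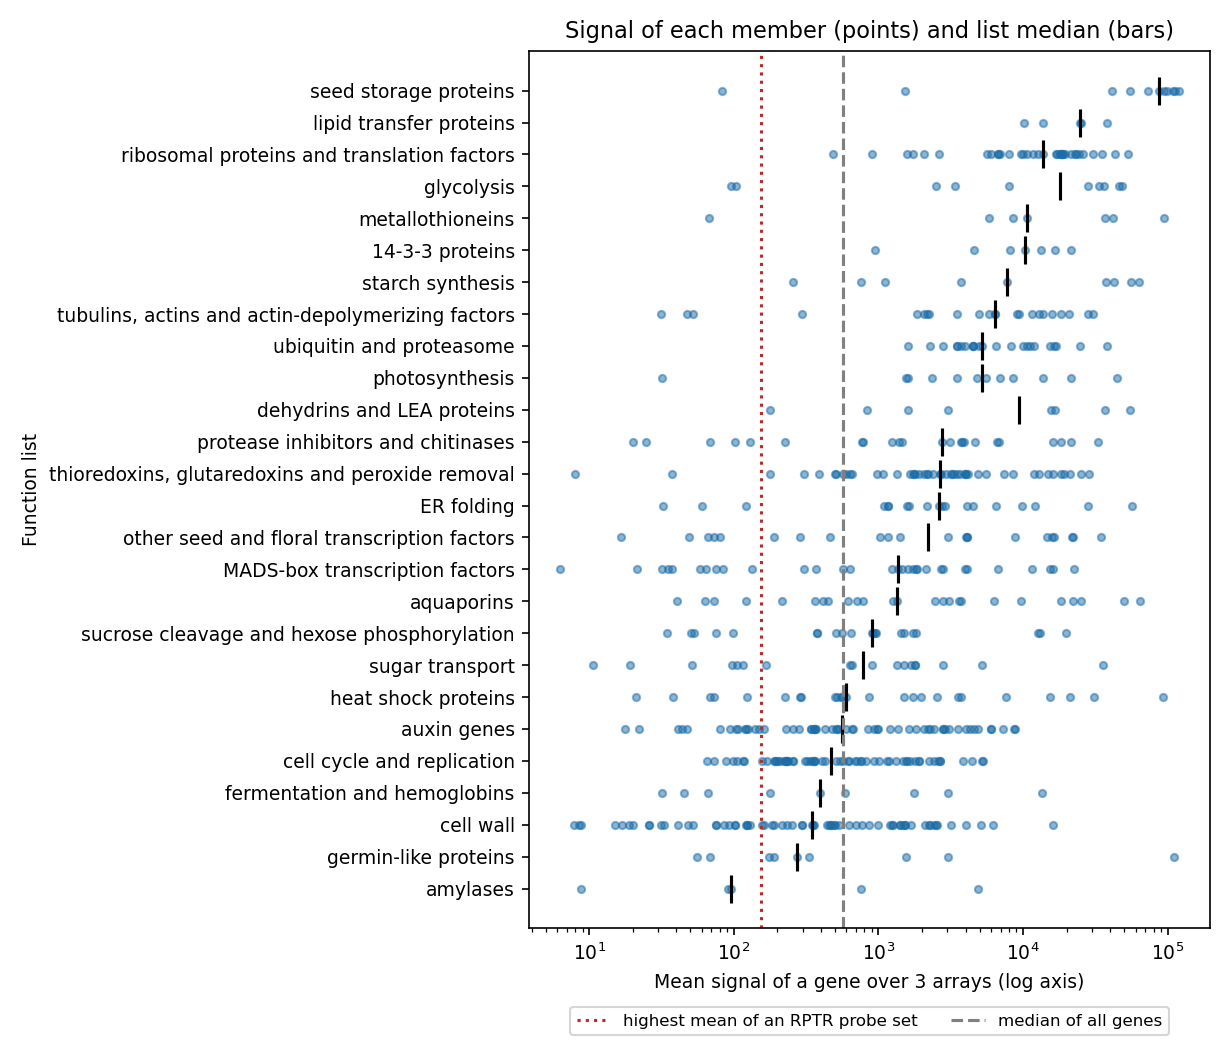
Mean signal of each gene of 26 function lists (points, log axis), with the median of each list as a bar, the highest mean of a reporter (RPTR) probe set (155) as a dotted line and the median of all genes (571) as a dashed line. Storage proteins, lipid transfer proteins and glycolysis have the highest medians, and single bright genes stand far from their list for germins, sugar transport and heat shock proteins.

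Genes of defence and redox balance had median ranks of 2760 and 2857.5, above the middle of all genes. The 23 protease inhibitors and chitinases held 0.373 ± 0.0156%, led by PBZ1, a pathogenesis-related protein, at 34035, 30011 and 35039 (rank 98). The cysteine protease inhibitors OC-I and OC-III had means of 21300.3 ± 1808 and 18236 ± 1393. RBTI, a Bowman-Birk type trypsin inhibitor, read 13848, 13855 and 20876, with array 3 above the others. The 48 thioredoxins, glutaredoxins and enzymes of peroxide removal held 0.747 ± 0.0117% in all, with GRXC6, a glutaredoxin, at 28511 ± 3935, TRXH, a thioredoxin, at 25057 ± 515, APX2, an ascorbate peroxidase, at 21272 ± 1664 and OsCXXS1, of the thioredoxin family, at 19099 ± 2018.

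The cytoskeleton held 0.589 ± 0.0216% over 23 tubulins, actins and actin-depolymerizing factors. ADF7, an actin-depolymerizing factor, had a mean of 30617 ± 3985, the alpha-tubulin TID1 28107 ± 2045 and the actin ACT7 20677 ± 2633. The beta-tubulin TUB5 read 21524, 17989 and 15394, highest on array 1. The 7 genes of 14-3-3 proteins, which bind phosphorylated partners such as metabolic enzymes, held 0.216 ± 0.0178% with a median rank of 639: GF14F had a mean of 21472 ± 1643, GF14B 16681 ± 2230, GF14A 13374 ± 611 and GF14C 10312 ± 862. None of the 7 was highest on array 3, against 32.0% of all genes.

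Transcription factors reached the 100 brightest genes with 1 member of the lists. YAB1, of the YABBY family, read 35028, 33722 and 35139 at rank 90. This place rests on 1 probe set: without those ending in _x_at or _s_at, YAB1 read 110 at rank 13392. MIF1, a small zinc finger protein, had a mean of 22161 ± 4480, NFYB1, an endosperm subunit of the nuclear factor Y, read 21332, 23294 and 21156, and EREBP1, of the ethylene response factor family, had a mean of 16343 ± 661. These head the 22 other seed and floral factors, which held 0.441 ± 0.00881%.

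The 31 MADS-box factors held 0.290 ± 0.0121%. The floral factors MADS8, MADS7 and MADS1, of the SEPALLATA type, had means of 22435 ± 720, 16095 ± 447 and 15235 ± 401, each varying by 2.63% to 3.21% of its mean. MADS58, of the AGAMOUS type, read 13605, 11637 and 9434.5, lowest on array 3. For 10 of the 31 genes the mean was not above the highest reporter mean.

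Lists of growth and division had no gene among the 100 brightest, and their median ranks of 9780.5 for cell cycle, 9024.5 for auxin and 10909 for cell wall lie near or below the 8953 of all genes. The 62 genes of cell cycle and replication are 0.346% of the genes and held 0.179 ± 0.0106% of the signal, with none among the 1000 brightest. Their highest were the cyclins CycC1;1 at 5248 ± 590 and CYCT1-1 at 5191 ± 680 and the kinases CDC2-1 at 4445 ± 328 and CDKF-1 at 3856 ± 417. The 58 auxin genes held 0.277 ± 0.0235%, led by the Aux/IAA repressors IAA17 (12073, 7942 and 6362) and IAA21 (mean 8620 ± 1193), by GH3-8, which conjugates auxin to amino acids, at 7263 ± 1528, and by IAA3 at 6009 ± 1119. The 68 cell wall genes held 0.209 ± 0.0162%, with EXPB3, a beta-expansin, at 16192 ± 1610 and the cellulose synthases CESA3, CESA1 and CESA8 at 6169 ± 322, 5149 ± 400 and 4044 ± 343. For the cell wall list 24 of 68 genes were not above the highest reporter mean.

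Several of the brightest named genes belong to none of these lists as they were matched by name. GOS2, a translation initiation factor of the SUI1 type, was not matched to the translation list, of which it would be the brightest member with a mean of 74663 ± 17251. It read 70036, 60198 and 93756, a spread of 23.1%. CPK23, a calcium-dependent protein kinase, read 65376, 66478 and 81274, and SAP8, a stress-associated zinc finger protein, read 63681, 62801 and 81400. TCTP, the translationally controlled tumour protein, was steadier at 66686.5, 65761 and 71810 (4.79%), as was ARF, an ADP-ribosylation factor of vesicle transport, with a mean of 54379 ± 2685.

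Over all lists, 592 genes in 26 lists held 12.8 ± 0.569% of the signal, 1865 other named genes 11.5 ± 0.151%, and the 15448 genes with no name 75.7 ± 0.447%. Among the 30 brightest genes 14 have no name. LOC9270227 read 105175, 95177 and 120753, LOC4341135 98090, 86304 and 110865, and LOC4329275 91585, 89594 and 112532. These 3 took ranks 5, 6 and 8. The others were LOC4352868, LOC4339221, LOC4333690, LOC4328121, LOC4343901, LOC9266083, LOC4342721, LOC4334398, LOC4339108, LOC4329755 and LOC9271122, with means from 92010.3 down to 56919.

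Some of the brightest signals have no gene at all in the platform annotation. The 34663 probe sets not listed there had a median of 48.0 but held 20.9 ± 0.375% of the signal of all probe sets, and they took 5 of the 10 brightest places and 19 of the 100 brightest. The 2 brightest probe sets of the array were among them. The first read 131212, 109865 and 140648 and the second 126354, 104273 and 145724. The 10 brightest of this kind ran from 127242 down to 84199, and for the tenth only 14 genes were brighter. No role can be given to them here.

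Bright genes were read more often by probe sets that can bind several related transcripts. Among the 100 brightest genes, 19% were read by a probe set ending in _x_at, in which probes may bind other sequences, against 6.58% of all genes, and 15% by one ending in _s_at, shared by several transcripts, against 4.99%. Plain probe sets, ending in _at, made up 47% against 82.7%. In the storage list RP5, RA5 and GLUA-2 have the first ending and RAG2 and GLUA-1 the second, so signals of these glutelins, prolamins and allergens may hold those of close relatives and are uncertain as values of single genes.

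Probe sets of 1 gene often differed. For the 3444 genes with several, the brightest read a median of 2.82 times the next, and for 21.0% at least 10 times. Among the 100 brightest genes, 45 had several probe sets, with a median of 2.28, and for 12 the brightest was at least 10 times the next. The 2 probe sets of RP5 had means of 119401 and 96904, close to each other. Those of GLUA-2 were at 86720 and 379 and those of RAG1 at 40917 and 276, so either gene could be ranked bright or dim.

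Without the _x_at and _s_at probe sets, RAG2 read 1077 at rank 5657, GLUA-2 379, MT2A 259, YAB1 110, LTP2-B 157 and CDC2-1 124, while HSP81-3 still read 17376 at rank 234 and Os11N3 1075. The unnamed LOC4352868 and LOC4339221 read 12167 and 2774. Only 120 of the 138 named genes kept a value. RP5, GLUA-1 and RA5 were among those with none left, and the storage list held 0.880% in place of 2.26%. With the mean of its probe sets in place of the brightest, SBE read 22909 at rank 143 and Wx 25349 at rank 115, GAPC3 20620.4, AldC-1 18193, TPI 16996, and MT2A 11263; in all, 36 of 138 named genes moved by over 1.5 times in this way. A gene with 1 probe set cannot move in this way and one with several can only fall. The 36 of 138 is therefore no rate for genes with several probe sets. RAG2 kept 71486 at rank 10.

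**Figure D5:**
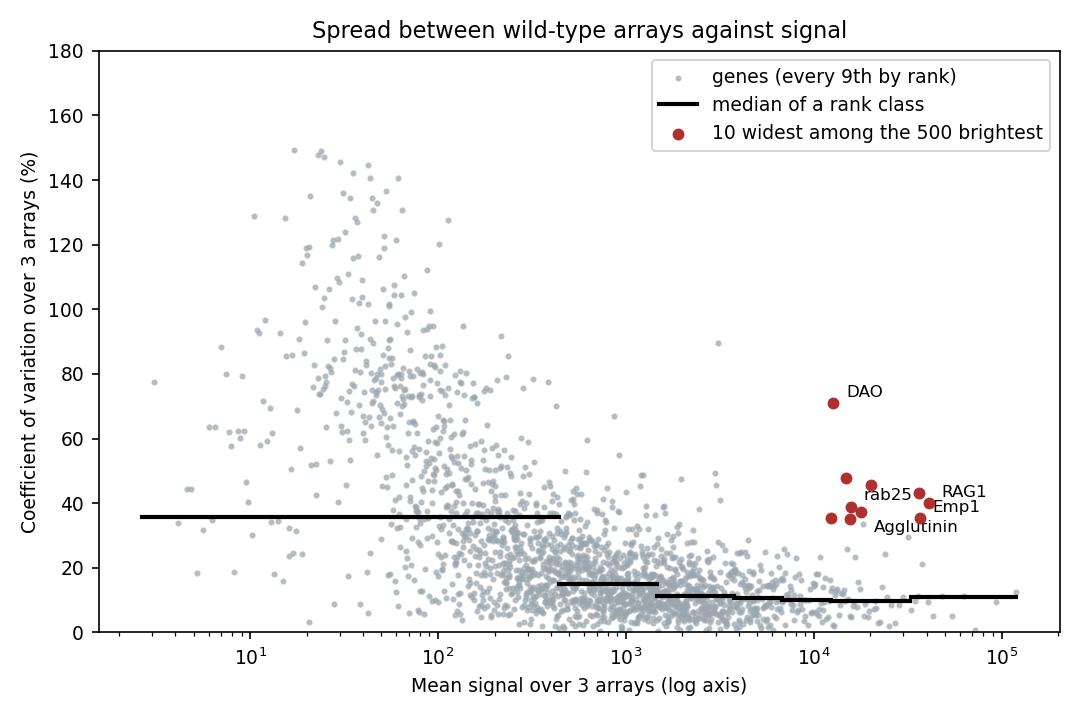
Coefficient of variation over the 3 wild-type arrays (percent) against mean signal (log axis), for every 9th gene by rank, with the median of each rank class as a bar and the 10 widest of the 500 brightest genes in red. The median falls from 35.8% beyond rank 10000 to about 10% among the bright genes, and DAO lies far above it at 70.8%.

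The spread between the arrays depended on brightness. The median coefficient of variation was 10.9% over ranks 1 to 100, 9.85% over ranks 101 to 500 and 35.8% beyond rank 10000, and 18.5% over all genes. A difference of at least 2-fold between the highest and lowest array was found for 2 of the 100 brightest genes, 4 of the next 400, and 51.1% of the genes beyond rank 10000. For low genes such as GLUB-4 or the type 1 amylases, the order of the arrays has therefore little weight.

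Among the 500 brightest genes, DAO, a dioxygenase that oxidizes auxin, varied most: 5623, 9686 and 22868, a coefficient of 70.8%. Its mean of 12726 at rank 471 rests on array 3, without which it is 7655 at rank 872. After it came LOC9267086 (47.8%), LOC4342720 (45.6%), LOC4338883 (43.1%), RAG1 (40.0%), rab25 (39.0%), Agglutinin (37.4%), Emp1 (35.3%), LOC4346292 (35.3%) and LOC4324254 (35.2%). All 10 were highest on array 3, against 47.8% of the 500 brightest genes. Agglutinin, a lectin gene, read 13362, 14846 and 25660.

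At the other end were GLUA-3 (0.590%), CC-1 (0.706%), LOC4347800 (0.728%), LOC4343901 (0.868%) and LOC4332856 (0.922%). CC-1 read 12909, 13076 and 12927, and LOC4343901 71562, 72608 and 71496. Of the 100 brightest genes, 75 were highest on array 3 and 70 lowest on array 2, whereas over all genes 32.0% were highest on array 3. The poly-A controls were 3.11 times as bright on array 3 as on array 1 and the ribosomal RNA probe sets 0.583 times; their part in this tilt was not tested.

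Some bright genes are neighbours in the genome. By the gene order of the RefSeq assembly ASM3414082v1, 9 of the 100 brightest genes lie within 5 genes of another of them, in 3 runs; this is 9%, against 2.79% of the other 17805 genes that lie as close to one of the 100. On chromosome 7 the allergen genes RAG1, RAG2 and RA5 stand in 1 run with LOC4342721 (mean 68766 ± 13445) and LOC4342729 (mean 43808 ± 6146), neither of which has a name. All 5 were highest on array 3 and lowest on array 2, against 75% and 70% of the 100 brightest genes. RAG2 was read by a probe set ending in _s_at and RA5 by one ending in _x_at. Signals within the run may therefore not be independent readings. On chromosome 2, GLUD-1 lies near LOC4328876, with means of 55210 and 52201, and on chromosome 5 MT2C is next to LOC4337595, with means of 94033 and 48340.3. Chromosome 3 held 17 of the 100 brightest genes (13.7% of all genes lie there) and chromosome 4 held 3 (8.76%). RP5 also lies on chromosome 7, outside the run.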

How the data were processed

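Total RNA of caryopses of wild-type Zhonghua11, 7 days after flowering, was hybridized to 3 arrays. The authors deposited one intensity for each probe set, not log transformed. The submitters' processing notes name GCOS 1.4 as the software. Background correction, probe summary and scaling are not given in the sources used here. In the deposited intensity values the mean after trimming is 500.1 on each array.

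The file held 57381 probe sets. Control probe sets (187, among them 64 reporter probe sets) were left out, leaving 57194. Of these, 22436 were listed with 1 gene, 95 with several and 34663 with none, and only the first were used for genes. For each of 17905 genes the probe set with the highest mean of the 3 arrays was kept; 14461 genes had only 1. Symbols are mostly LOC numbers in the current RefSeq table (82 are not), so names were taken from its symbols or synonyms. No column was left unmapped (0). The other 3 arrays of the study were not used here. The share of a gene is its signal over the summed signal of all genes on that array.

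The genes named are the 30 brightest, the 25 brightest with a name, the 4 brightest of each list, the 10 with the highest and the 5 with the lowest coefficient of variation among the 500 brightest, and the 10 brightest probe sets with no gene, beside list members below the reporter level. The members and lists were chosen with earlier results of these data known, and the patterns that matched names to lists were written after the signals had been seen. No test was made. The calculation of ranks and shares was run on simulated data, made from the observed means with independent noise for each probe set. That run had no shift shared by the genes of an array. It checks the calculation only and says nothing of how accurate the ranks and shares are here. Alternatives were each array left out, the mean of the probe sets of a gene, probe sets ending in _x_at or _s_at left out, quantile normalization, division by the array median, the median of the arrays, the reporter median subtracted, dim genes left out, all probe sets in place of genes, and log2(signal + 20) for the spread. Promoter and protein sequences were not analysed here. Python 3.11.15, pandas 2.3.3, numpy 2.4.6 and matplotlib 3.10.9 were used.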

Additional observations from a re-analysis of the deposited data

How the results depend on the processing

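No paired analysis was possible because the results come from no test. Leaving out 1 array at a time moved the median coefficient of variation of the 500 brightest genes from 9.997% to between 7.45% and 8.63%, where only 2 arrays remain; it was 9.03% after quantile normalization and 13.2% after division by the array median. With all probe sets in place of genes, the 10 brightest held 2.19% and the 100 brightest 13.9%, and with the mean of the probe sets of a gene the 100 brightest held 14.2% and starch synthesis 0.455%. Without the _x_at and _s_at probe sets the storage proteins held 0.880% and starch synthesis 0.660%; the cause of these shifts was not tested. The number of genes holding 50% of the signal stayed between 981 and 1064 over the alternatives that keep genes, and was 1344 over probe sets. Of the other 24 lists, 15 moved by more than the SD of the arrays with the mean of the probe sets, 20 without the _x_at and _s_at probe sets, 1 with the median of the arrays and 0 when an array was left out. Leaving out 1 of 3 arrays cannot shift a mean by as much as their SD while the probe sets kept stay the same. That 0 therefore carries no weight. Of 138 named genes, 36 moved by over 1.5 times with the mean of the probe sets and 1, DAO, without replicate 3 (7655 in place of 12726). Without the _x_at and _s_at probe sets only 120 of the 138 kept a value, and 10 of these moved by over 1.5 times. Genes with 1 probe set could not move with the mean of the probe sets. Genes whose brightest probe set has another ending could not move without the _x_at and _s_at ones. With no saturation or detection call used here, the order of the brightest probe sets and values under the reporter level have little weight, and 3 arrays limit every SD.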
